A study of Mus musculus with 10 samples.

Results

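The 10 genes described here encode the machinery by which antigen-presenting cells load peptides onto MHC class II molecules: Ciita, H2-Aa, H2-Ab1, H2-Eb1, H2-DMa, H2-DMb1, H2-DMb2, H2-Oa, H2-Ob and Cd74. They were chosen by gene symbol from the 34745 genes of the deposited table, and all 10 passed the filter on low counts that left 12264 genes to test. Polyadenylated RNA came from peritoneal lavage cells, a mixture of leukocytes and loose mesothelial cells rinsed from the abdomen, of mice made septic by cecal ligation and puncture. The labels name 5 libraries AX and 5 libraries NC, and because the series compares amlexanox, a small anti-inflammatory inhibitor of the kinases TBK1 and IKKε, with vehicle, AX is taken here to mean amlexanox, and NC vehicle. All 10 samples therefore come from septic mice, and an animal without sepsis is not analysed here. The sources used here give no strain, sex, age, dose or time of collection. No label states that each library came from its own animal, so p-values measure the spread between these libraries, which may be technical.

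Class II molecules are pairs of an α and a β chain that carry peptides from engulfed material to the cell surface, where CD4 T cells read them. In the endoplasmic reticulum the pair is held by the invariant chain (Cd74), which is cut down in endosomes until H2-DM exchanges its last fragment for a peptide, a step that H2-DO restrains. Transcription of these genes depends on the coactivator CIITA, which does not bind DNA itself but joins the RFX, CREB and NF-Y proteins on the X and Y boxes of their promoters. In the peritoneal cavity class II is known from B cells, dendritic cells and the small, monocyte-derived macrophages, while the large resident macrophages carry little of it.

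Promoter sequences show what these genes share upstream. RefSeq windows on GRCm38.p6, from 250 bases before to 50 bases after each gene start, were at hand for 7 of the 10 genes (H2-Aa, H2-Eb1, H2-DMa, H2-DMb1, H2-DMb2, H2-Oa and H2-Ob). They were searched on both strands for the letters TGATTGG, the core of the Y box, GCAAC, part of the X1 box, and TGATGC, part of the X2 box; the letters were chosen with these windows in view. The segments below run 5′ to 3′ on the strand of each gene, from 50 bases before TGATTGG to 6 bases after it, and capitals mark the matches to the 3 searched motifs.
H2-Aa (chr17:34287861-34287923, minus strand): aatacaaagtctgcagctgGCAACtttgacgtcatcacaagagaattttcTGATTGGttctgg
H2-Eb1 (chr17:34305756-34305818, plus strand): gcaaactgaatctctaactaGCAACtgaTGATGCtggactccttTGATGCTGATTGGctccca
H2-DMb1 (chr17:34153078-34153140, plus strand): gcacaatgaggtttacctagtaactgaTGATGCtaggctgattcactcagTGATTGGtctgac
H2-DMb2 (chr17:34145107-34145169, plus strand): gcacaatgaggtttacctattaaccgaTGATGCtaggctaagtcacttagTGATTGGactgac
H2-Oa (chr17:34092284-34092346, plus strand): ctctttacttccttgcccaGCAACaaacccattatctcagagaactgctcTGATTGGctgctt
H2-Ob (chr17:34238796-34238858, plus strand): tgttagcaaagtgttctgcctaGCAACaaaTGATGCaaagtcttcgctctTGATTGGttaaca

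TGATTGG stood on the gene's own strand in 6 of the 8 windows of these genes, beginning 45 bases before the gene start in H2-Oa and 92 bases before it in H2-DMb2, the nearest and the farthest. Of all 32851 windows, 4.01% held it on the gene's own strand and 7.82% on either strand. GCAAC, found on either strand in 35.2% of all windows, began 28 to 31 bases before TGATTGG in H2-Aa, H2-Eb1, H2-Oa and H2-Ob. TGATGC, found on either strand in 10.9% of all windows, began 23 bases before it in both H2-DMb1 and H2-DMb2 and 20 bases before it in H2-Ob. H2-Eb1 held TGATGC in 2 places, 22 and 6 bases before TGATTGG, and the second directly abuts it. The 2 windows of H2-DMa, chr17:34122582-34122881 and chr17:34125268-34125567, held neither TGATTGG nor TGATGC, and the first held GCAAC on the opposite strand. Both lie before the counted span of H2-DMa, which begins at 34135182, so they do not cover its start. A window without a match says only that these letters are not in it. No match overlapped another. The 2 β chain genes of H2-DM are near copies of each other beyond the promoter: over 783 aligned coding bases of GENCODE M21, 751 were identical (95.9%), so that reads may be divided between H2-DMb1 and H2-DMb2 with some uncertainty.

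The smallest library, NC 1, held 10221170 counts and the largest, NC 2, 13806885. Levels are given as normalised read counts (CPM, by TMM-scaled library size), and the 10 genes are compared with each other only as deposited FPKM, which also divides by gene length. Sums over marker lists are in CPM, where a longer gene gives more reads at the same level. They include the markers that did not pass the filter on low counts. AX 6 and NC 1 had the highest sums of markers of other tissues. The 11 mesothelial markers (10 tested) summed to 2587 CPM in AX 6 and 1084 CPM in NC 1 against at most 370.8 CPM in the other 8 libraries. The 10 gut epithelial markers tested summed to 609 CPM in AX 6 and 1054 CPM in NC 1. NC 4 came next at 480.4 CPM, and the remaining libraries reached at most 111 CPM (AX 9). Without AX 6 and NC 1, fitted values lay above NC for 4 of the 10 class II genes and below it for 6, and 0 had an unadjusted p under 0.05 in edgeR.

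The mRNAs fell into 3 tiers per length. Cd74 and H2-Eb1 had the highest median FPKM over the 10 libraries, 152 and 149.98, followed by H2-Ab1 at 82.1 and H2-Aa at 72.6. These 4 genes of the class II chains and their chaperone lay above at least 95.2% of the genes tested. The genes of peptide exchange were far lower, with a median FPKM of 6.97 for H2-DMb1, 4.07 for H2-DMa and 2.77 for H2-DMb2. H2-Ob at 0.631, H2-Oa at 0.453 and Ciita at 0.170 formed the lowest tier, and Ciita exceeded only 3.84% of the genes tested. Within each tier neighbouring genes in this order overlapped in their ranges over libraries, so the ranges do not settle their order. Compared within each library, H2-Eb1 exceeded H2-Ab1 in all 10, with an FPKM ratio from 1.44 to 2.44. That order rests on the gene lengths used for FPKM. By CPM, H2-Eb1 had the lower group means, 157.7 against 184.6 in AX and 161.7 against 170.4 in NC. The ratio of Cd74 to H2-Eb1 ran from 0.560 to 1.38 and that of H2-Aa to H2-Ab1 from 0.747 to 1.15. Between tiers the FPKM ranges did not overlap, which also rests on gene length. By CPM, H2-DMb2 (3.16 to 11.2) and H2-Ob (1.21 to 5.42) did overlap. The lowest H2-Aa value was 39.3 FPKM and the highest H2-DMb1 value 12.6 FPKM, while the lowest H2-DMb2 value, 1.14 FPKM, barely exceeded the highest H2-Ob value, 1.12 FPKM. The plot of CPM by gene shows the same libraries gene by gene.

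**Figure D1:**
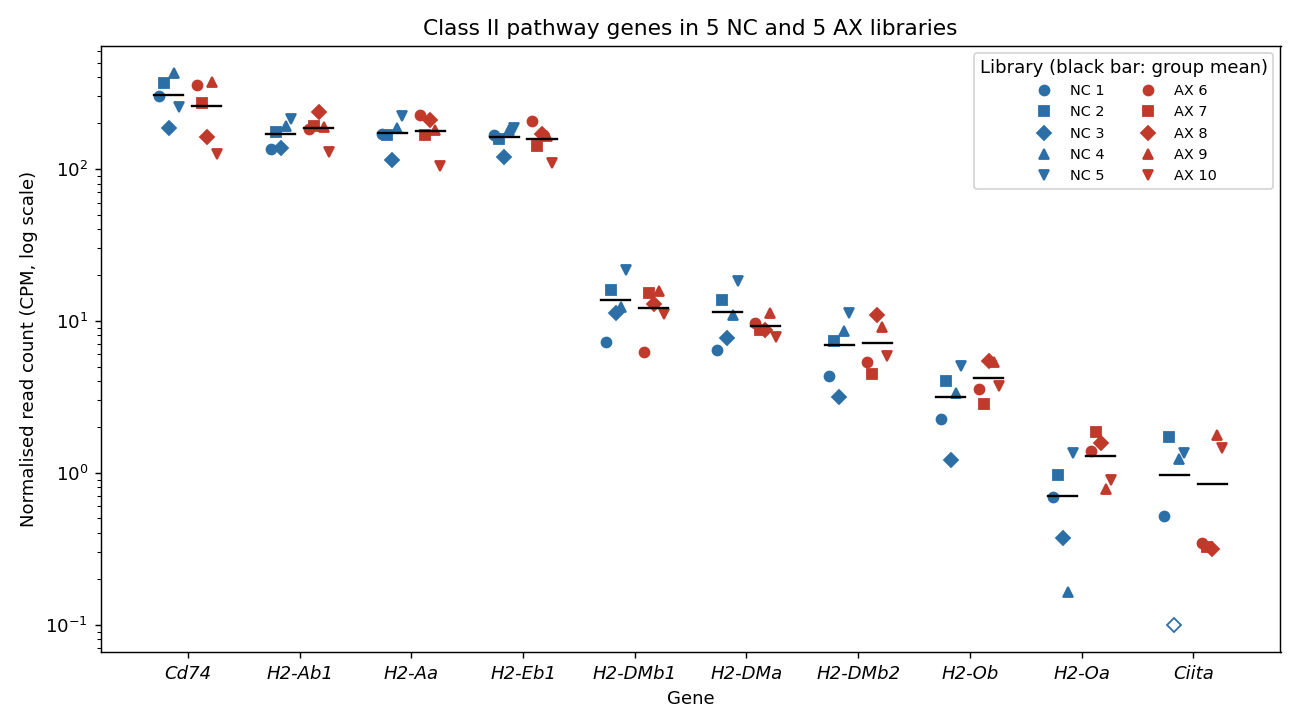
Normalised read count (CPM, log scale) of each gene in the 5 NC (blue) and 5 AX (red) libraries; each symbol is 1 library, black bars are group means, and the open symbol at the lower edge is Ciita in NC 3, which had no read. The AX and NC symbols overlap for each of the 10 genes, and AX 10 and NC 3 lie lowest for H2-Aa and H2-Eb1.

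No class II gene differed between AX and NC beyond the spread of the libraries. With the quasi-likelihood test of edgeR, 0 of the 10 genes passed an adjusted p of 0.05, and 0 of the 12264 genes tested did (0% called); at an unadjusted p under 0.05 there were 0 of the 10 and 113 of all genes (0.921%). The groups overlapped for all 10 genes, and did not overlap for 0.139% of the genes tested. Fitted values were higher in AX for 5 of the 10 genes and lower for 5, against 53.6% higher and 46.4% lower over all genes tested, and with library totals in place of TMM the split was 3 higher and 7 lower. The median log2 fold change of the 10 genes was 0.0048 and that of all genes tested 0.02. DESeq2 and limma-voom also called 0 of the 10 and 0 of all genes tested; at an unadjusted p under 0.05 they had 193 and 132 of all genes and 0 of the 10. In bulk RNA, fewer cells of a type and less RNA per cell cannot be told apart.

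Intervals were narrow for the abundant chain genes. H2-Ab1, the β chain of the I-A molecule (ENSMUSG00000073421, chromosome 17 from 34263209 to 34269418 of mm10), stood at 181.6, 190.7, 235.5, 187.02 and 128 CPM in AX 6 to AX 10 and at 135.9, 175.6, 136.9, 191.9 and 211.9 CPM in NC 1 to NC 5. AX 8 was the highest and AX 10 the lowest of the 10 libraries, so that the AX range enclosed the NC range. The group means were 185 ± 38.1 CPM in AX and 170.4 ± 33.6 CPM in NC (SD, n = 5 each), a log2 fold change of 0.12 ± 0.20 (SE) with a 95% interval of the fold from 0.7998 to 1.47.

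H2-Aa, the α chain of I-A (chromosome 17 from 34282744 to 34287827), stood at 227.6, 166, 210.2, 180.2 and 104 CPM in AX 6 to AX 10 and at 169, 168, 114, 185 and 223 CPM in NC 1 to NC 5. AX 6 was highest, AX 10 lowest, and NC 3 next to lowest. Its log2 fold change was 0.05 ± 0.24 (SE), and it turned to -0.06 without AX 6 and NC 1 and to -0.02 with library totals. H2-Eb1, the β chain of the I-E molecule (chromosome 17 from 34305877 to 34316199), stood at 204.8, 141, 170.1, 164 and 109 CPM in AX 6 to AX 10 and at 167, 158, 119, 181 and 184 CPM in NC 1 to NC 5. Its order of libraries followed that of H2-Aa, again with AX 6 at the top and AX 10 and NC 3 at the bottom. The log2 fold change was -0.04 ± 0.20 (SE), with a 95% interval of the fold from 0.722 to 1.32. The table lists the α chain partner of I-E only as H2-Ea-ps, with 0 counts in all 10 libraries. With 3 counts taken as the floor, this allows up to 0.192 to 0.313 CPM by library. H2-Eb1 overlaps Gm20513 on the opposite strand; the use of strand in counting is not given in the sources used here, so reads of the 2 cannot be told apart there.

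Cd74, the invariant chain (ENSMUSG00000024610), was the most variable of the 4 abundant genes. It stood at 354.7, 271.9, 161, 375 and 126 CPM in AX 6 to AX 10 and at 302, 368, 186, 424 and 254 CPM in NC 1 to NC 5. AX 10 and AX 8 were the lowest and NC 4 the highest. The group means of 258 ± 112 CPM in AX and 306.6 ± 93.3 CPM in NC (SD, n = 5 each) gave a log2 fold change of -0.25 ± 0.33 (SE), with a 95% interval of the fold from 0.506 to 1.396. AX 8, where H2-Ab1 was at its highest, thus had one of the lowest Cd74 levels.

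The H2-DM genes, which edit the peptide cargo, had lower levels and wider intervals. H2-DMa, the α chain, ranged from 7.86 to 11.3 CPM in AX and from 6.38 to 18.3 CPM in NC, with a log2 fold change of -0.30 ± 0.29 (SE). H2-DMb1, a β chain, spanned 6.23 CPM (AX 6) to 15.6 CPM (AX 9) within AX and 7.24 CPM (NC 1) to 21.6 CPM (NC 5) within NC, and had a log2 fold change of -0.17 ± 0.33 (SE). NC 5 was the highest library for all 3 H2-DM genes, while AX 6, the top library for H2-Aa and H2-Eb1, was the lowest for H2-DMb1. H2-DMb2, the other β chain, stood at 5.37, 4.44, 10.9, 9.11 and 5.83 CPM in AX 6 to AX 10 and at 4.31, 7.35, 3.16, 8.4999 and 11.2 CPM in NC 1 to NC 5. High values were split over both groups, in NC 5, AX 8, AX 9 and NC 4, and the log2 fold change was 0.05 ± 0.39 (SE).

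The H2-DO genes, whose product inhibits H2-DM and is known mainly from B cells, had the highest fitted folds of the 10 but rested on few reads. H2-Oa, the α chain, had 16, 23, 15, 12 and 11 counts in AX 6 to AX 10 and 8, 15, 4, 2 and 15 counts in NC 1 to NC 5. All 5 AX libraries lay above the NC median, and the groups still overlapped, since NC 5 and NC 2 exceeded the lowest AX libraries. The means were 1.296 ± 0.452 CPM for AX against 0.706 ± 0.469 CPM for NC (SD, n = 5 each). The log2 fold change was 0.86 ± 0.51 (SE), with a 95% interval of the fold from 0.836 to 3.92 and an unadjusted p of 0.119 in edgeR (adjusted p = 0.9999). The log2 fold change was 1.28 in limma-voom with quality weights (unadjusted p = 0.0408, adjusted p = 0.9999) and 1.21 in edgeR without NC 5 (unadjusted p = 0.0452, adjusted p = 0.9997). H2-Oa overlaps BC051537 on the opposite strand, and reads of the 2 genes cannot be told apart there. H2-Ob, the β chain, stood at 3.55, 2.82, 5.42, 5.37 and 3.73 CPM in AX 6 to AX 10 and at 2.24, 4.03, 1.21, 3.35 and 5.03 CPM in NC 1 to NC 5. NC 3 and NC 1 were the lowest libraries, and the log2 fold change was 0.39 ± 0.38 (SE) with a 95% interval of the fold from 0.735 to 2.35.

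Ciita, the master coactivator (ENSMUSG00000022504, chromosome 16 from 10488178 to 10527564), was close to the detection limit. It had 4, 4, 3, 27 and 18 counts in AX 6 to AX 10 and 6, 27, 0, 15 and 15 counts in NC 1 to NC 5. Each group thus held libraries with 15 or more reads beside libraries with 6 or fewer, and no library lay between. Exact Poisson intervals, which cover counting error only, ran from 17.8 to 39.3 for a count of 27 and from 1.09 to 10.2 for a count of 4, and these did not overlap. The intervals of 6 counts (2.20 to 13.1) and of 15 counts (8.395 to 24.7) did overlap. The interval of the count of 0 in NC 3 reached up to 3.69 counts. A floor of 3 counts equals 0.279 CPM in NC 3, while its H2-Ab1 stood at 136.9 CPM. The log2 fold change was -0.18 ± 0.79 (SE), with a 95% interval of the fold from 0.264 to 2.94, and it turned to 0.14 with limma-voom. Ciita overlaps Dexi on the opposite strand.

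**Figure D2:**
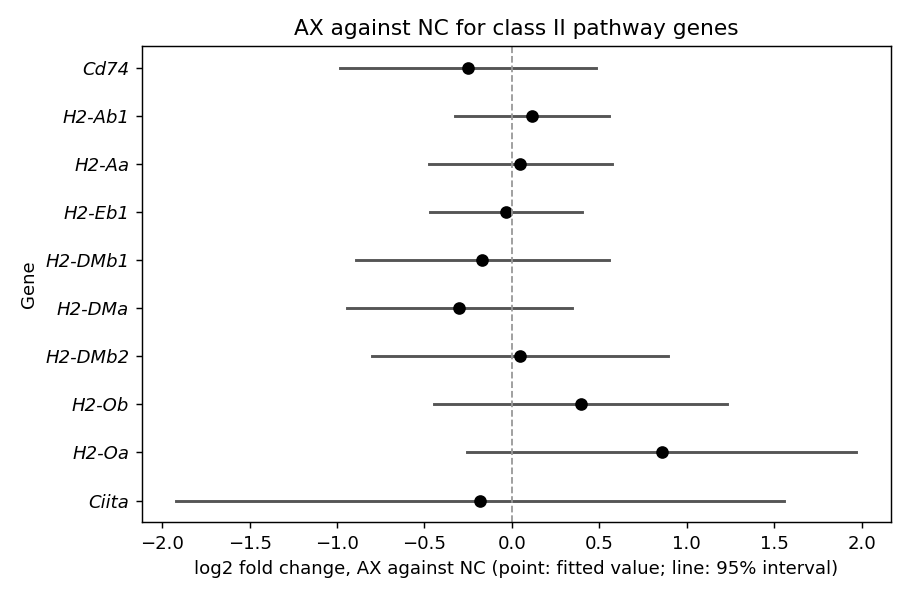
Fitted log2 fold change of AX against NC from edgeR for each gene (point) with its 95% interval (line); the dashed line marks no difference. All 10 intervals cross 0, and they widen from H2-Eb1, H2-Ab1 and H2-Aa to the sparsely read H2-Oa and Ciita.

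The chain genes did not keep fixed proportions across libraries. The FPKM ratio of H2-Aa to H2-Ab1 was 1.15 in both NC 1 and AX 6 and 0.747 to 0.966 in the other 8 libraries, and that of H2-Eb1 to H2-Ab1 was 2.44 in NC 1, 2.24 in AX 6 and 1.44 to 1.88 in the others. NC 1 and AX 6 are the 2 libraries with the highest mesothelial and gut epithelial marker sums given above. They also had the lowest sums of small macrophage and monocyte-derived cell markers, 319 and 335 CPM against at least 393 CPM in the others. Their large macrophage sums, 19976 and 22091 CPM against at least 22987 CPM, were mostly reads of Saa3. Without Saa3 these sums were 163 CPM in NC 1 and 219 CPM in AX 6, between 81.4 CPM in NC 3 and 541 CPM in AX 9. By list level (mean log2 CPM), AX 6 and NC 1 were also highest for conventional dendritic cells, at 3.87 and 3.78, before AX 9 at 3.61. They were lowest for monocytes, at 6.83 and 7.25, before AX 8 at 7.52. By summed CPM, NC 1 lay within the range of the other 8 libraries for both lists, at 556 and 4910 CPM. The part of these cells in the ratios was not tested. The ratio of Cd74 to H2-Ab1 varied more, 3.25-fold from 0.804 in AX 8 to 2.61 in NC 1, with means of 1.66 ± 0.686 for AX and 2.13 ± 0.584 for NC (SD, n = 5 each). H2-DMb1 exceeded H2-DMb2 in all 10 libraries, with a ratio from 1.77 in AX 6 to 5.46 in NC 3 and 5.199 in AX 7.

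**Figure D3:**
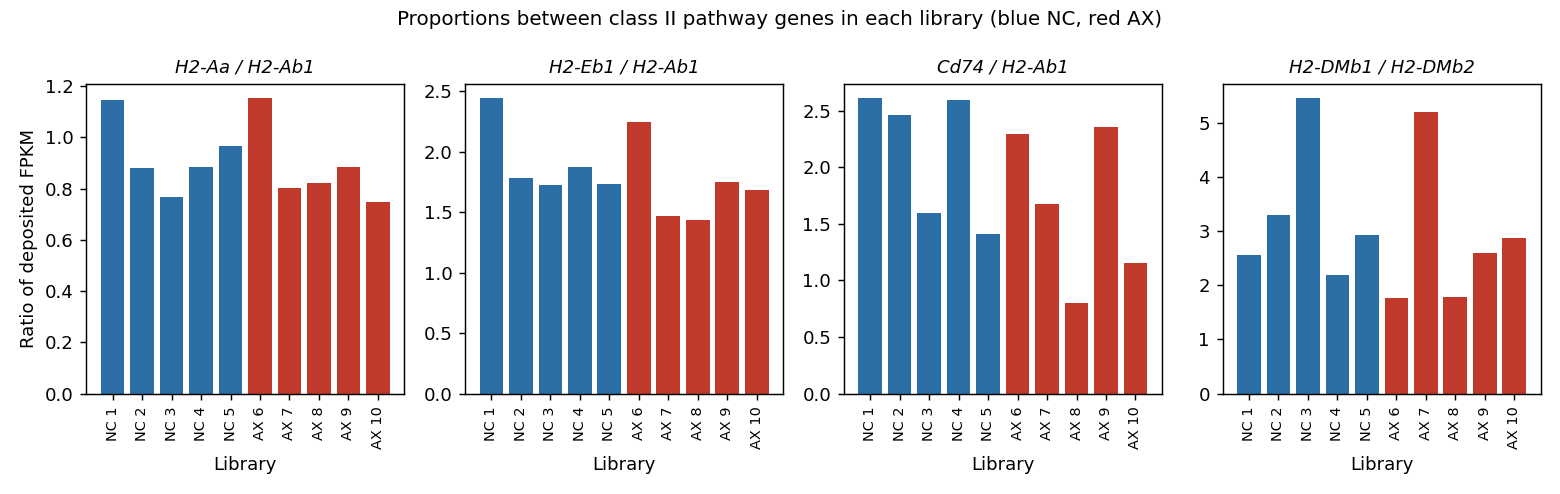
Ratio of deposited FPKM (linear axis from 0) for 4 pairs of genes in each library, NC in blue and AX in red; each bar is 1 library. NC 1 and AX 6 have the highest H2-Aa and H2-Eb1 relative to H2-Ab1, and NC 3 and AX 7 have the highest H2-DMb1 relative to H2-DMb2.

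Related genes were compared across the 10 libraries to see which varied together. Of the 45 pairs, 42 had a Pearson r above 0, and 2 passed an adjusted p of 0.05 by permutation; the pairs were examined after the values were seen, and all values of a library share its depth and scaling. H2-Aa and H2-Eb1 had r = 0.957 and a Spearman rho of 0.976 (two-sided permutation p = 5e-05 and 4e-05, adjusted p = 0.00203 and 0.0018 over 45 pairs, n = 10). Without AX 10 and NC 3, the libraries farthest from the median of H2-Aa, r was 0.818 (exact permutation p = 0.00774). H2-DMb2 and H2-Ob had r = 0.903 and rho = 0.891 (permutation p = 9e-05 and 0.00119, adjusted p = 0.00203 and 0.0268, n = 10), and r = 0.867 without NC 3 and NC 5 (exact permutation p = 0.00486). Both pairs still passed after adjustment when any 1 library was left out, and missed the threshold without their 2 farthest libraries. H2-Aa and H2-Ab1, the 2 chains of I-A, had r = 0.813 and rho = 0.661 (permutation p = 0.0035 and 0.0445, adjusted p = 0.0525 and 0.334), and r = 0.546 without AX 10 and NC 3 (exact permutation p = 0.166). H2-DMb1 had an r of -0.10 with H2-Eb1 and of 0.07 with H2-Aa (permutation p = 0.789 and 0.862).

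**Figure D4:**
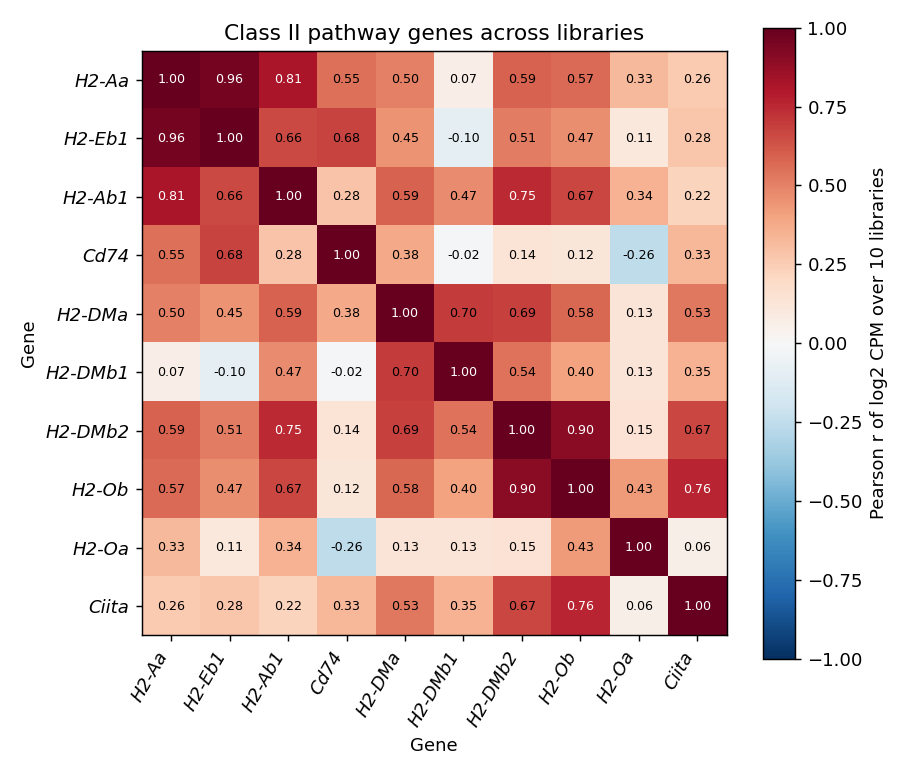
Pearson r of log2 CPM over the 10 libraries for each pair of genes, on a colour scale from -1 (blue) to 1 (red) with the value in each cell. H2-Aa with H2-Eb1 (0.96) and H2-DMb2 with H2-Ob (0.90) are the 2 pairs that passed the adjusted threshold.

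Ciita did not pass with any of the other 9 genes. Its highest r was 0.764 with H2-Ob and 0.671 with H2-DMb2 (rho = 0.552 and 0.527; permutation p of r = 0.0173 and 0.027, adjusted p = 0.122 over 9 relations for both, n = 10). Without AX 7 and NC 3, the libraries farthest from its median, these fell to 0.222 and 0.251. Without AX 7 alone they were 0.758 and 0.659, and without NC 3 alone, the library with no Ciita read, 0.353 and 0.41, so they rested on NC 3. With library totals in place of TMM both passed, at r = 0.829 and 0.758, and without AX 8 they also passed, at r = 0.9005 and 0.838. With the chain genes r was 0.260 for H2-Aa, 0.224 for H2-Ab1 and 0.280 for H2-Eb1 (permutation p = 0.469, 0.546 and 0.427), and all 3 were negative without NC 3 alone (-0.349, -0.219 and -0.233). At 0 to 27 reads per library, weak relations of Ciita cannot be read.

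The genes with a pattern most like H2-Ab1 across the 10 libraries are given as a description, by Pearson r of log2 CPM and leaving out class II genes, predicted genes and genes of low level. They were Acadsb (0.884), Tspan13 (0.847), Tuba1b (0.830), Cd2 (0.830), Pxn (0.829), Ttf2 (0.815), Tmem62 (0.813) and Sil1 (0.807), among 12263 genes compared. H2-Aa ranked 8th of these 12263 genes, H2-DMb2 27th, H2-Ob 84th and H2-Eb1 99th, whereas Cd74 ranked 1872nd and Ciita 2574th. Over all genes the median r was -0.0123, and 3.84% reached 0.5.

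Markers of the cells that could carry class II were present in both groups. The 15 B cell markers (13 tested) summed to 140 to 299 CPM in AX and to 102 to 314 CPM in NC. The most reads came from Ighm at 102 ± 39.6 against 120.4 ± 43.9 CPM and Igkc at 41.2 ± 16.6 against 43.7 ± 18.5 CPM (SD, n = 5 each). NC 3 had the lowest and NC 5 the highest B cell sum. The 12 markers of conventional dendritic cells (8 tested) summed to 317 to 755 CPM in AX and 416 to 689 CPM in NC. Cd24a made up most of these sums, and other cells express it too. Without it the sums were 75.2 to 134.9 and 75.98 to 102 CPM. Xcr1 and Clec9a, which define cross-presenting dendritic cells, stayed at or below 0.242 and 0.459 CPM in all libraries. Siglech, which defines plasmacytoid dendritic cells, was at 0 in all 10 libraries, and Bst2, at 174 ± 155 against 98.9 ± 57.3 CPM, carried most of that list's sum of 73.2 to 466 CPM in AX and 68.7 to 219 CPM in NC. The list of small peritoneal macrophages and monocyte-derived cells summed to 335 to 1245 CPM in AX and 319 to 1254 CPM in NC, with the most reads from Fn1 and Ccr2. Large resident macrophage markers other than Saa3, an acute-phase gene that dominated that list, summed to 112 to 541 CPM in AX and 81.4 to 285 CPM in NC. Monocyte markers, with the most reads from Hp and Chil3, summed to 4235 to 7760.0 CPM in AX and 4910.4 to 9537 CPM in NC. Neutrophil markers, with the most reads from S100a9 and S100a8, reached 6802 to 12764 CPM and 7125 to 13592 CPM, and T cell markers, with the most from Il7r and Lat, 31.7 to 71.1 CPM and 42.3 to 83.4 CPM. Without Il7r the T cell sums were 12.5 to 39.8 CPM in AX and 11.6 to 40.8 CPM in NC. Among large macrophage markers Adgre1, among conventional dendritic cell markers Wdfy4 and among plasmacytoid markers Tcf4 had the next most reads, and among mesothelial markers Msln and Krt8 and among gut markers Lgals4 and Fabp2 had the most.

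No tested marker of these lists passed between AX and NC in edgeR, also at an unadjusted p under 0.05, but some lists leaned one way by fitted value. Mesothelial markers lay above NC for 10 of 10 (median log2 fold change 1.14) and large macrophage markers for 8 of 10 (0.86), while gut epithelial markers lay below NC for 10 of 10 (-1.001). The genes of a list share its libraries, so these counts are not separate observations. The mesothelial sum was 2587 CPM in AX 6 and at most 370.8 CPM in the other AX libraries. Large macrophage markers without Saa3 reached 541 CPM in AX 9 and at most 233 CPM in the other AX libraries. Gut sums were 1054 CPM in NC 1 and 480 CPM in NC 4, against at most 78.2 CPM in the other NC libraries. In AX 6 the gut sum was 609 CPM. Plasmacytoid dendritic cell markers lay above NC for 2 of 3 (0.31) and B cell markers below it for 9 of 13 (-0.13). Markers of conventional dendritic cells (0.03), small macrophages and monocyte-derived cells (0.06), monocytes (-0.06), neutrophils (-0.10) and T cells (-0.06) had medians closer to the 0.02 of all genes tested. The part of these cells in the class II levels was not tested.

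Each of the 10 genes was also set against the level of each list over the 10 libraries. Of 100 relations between a gene and a list level, examined after the values were seen, 2 passed by Pearson r with permutation and adjustment over the 100. H2-DMb2 varied with the B cell list, at r = 0.9099 and rho = 0.915 (permutation p = 0.00024 and 0.00065, adjusted p = 0.024 and 0.0328, n = 10), and r was 0.818 without AX 7 and NC 3 (exact permutation p = 0.0124). H2-Ob had r = 0.85 and rho = 0.830 with the same list (permutation p = 0.00227 and 0.00494, adjusted p = 0.0757 and 0.0988), which did not pass, and r = 0.632 without AX 7 and NC 3. Ciita varied with the list of small macrophages and monocyte-derived cells, at r = 0.822 and rho = 0.891 (permutation p = 0.00053 and 0.00131, adjusted p = 0.0265 and 0.0328), and r was 0.769 without AX 6 and NC 3 (exact permutation p = 0.0231). Neither relation held its adjusted call throughout: that of H2-DMb2 was lost without AX 9, AX 10, NC 2, NC 3 or NC 5 (r from 0.860 to 0.912), and that of Ciita without AX 6, AX 9, AX 10, NC 2, NC 3, NC 4 or NC 5 (r from 0.801 to 0.857). With the T cell list, 2 genes passed by rank alone, H2-Ob at rho = 0.903 and H2-DMb2 at rho = 0.891 (permutation, adjusted p = 0.0328 for both), and not by r. None of the 4 abundant genes passed with the B cell list: H2-Ab1 had r = 0.524, H2-Aa 0.490, H2-Eb1 0.442 and Cd74 0.144 with it (permutation p = 0.119, 0.144, 0.198 and 0.687). With the conventional dendritic cell list r was 0.225, 0.614, 0.667 and 0.633 in the same order, and none passed (permutation, adjusted p = 0.834, 0.327, 0.287 and 0.287). Without AX 10 and AX 6 these were -0.377, -0.0186, 0.0436 and 0.218. With the gut list r was -0.0675, 0.443, 0.641 and 0.641, and none passed. Taken alone with the 10 lists, H2-Ab1 passed with none; the highest r was 0.697 with the T cell list (rho = 0.6; permutation p = 0.0281 and 0.0735, adjusted p = 0.281 and 0.443), and it was 0.383 without AX 8 and NC 5.

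The regulators and partners of the pathway likewise did not pass between AX and NC, and Ctsh alone had an unadjusted p under 0.05 in edgeR. It was 1 of 11 genes tested in its list, and 113 of all 12264 genes tested (0.921%) had such a p. A single gene of this kind among all these lists is no result about Ctsh. Of 10 proteins that bind or activate class II and Ciita promoters, fitted values lay above NC for 3 and below it for 7 (median log2 fold change -0.03), and 0 passed over all genes tested. Among them Spi1, which encodes the myeloid factor PU.1, stood at 487 ± 197 against 619 ± 203 CPM, Irf8 at 70.3 ± 18.1 against 77.9 ± 14.7 CPM, and the NF-Y subunit Nfyc at 13.4 ± 1.65 against 16.6 ± 1.42 CPM (SD, n = 5 each). Creb1, a factor of the X box, stood at 39.3 ± 19.6 against 30.2 ± 22.5 CPM.

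Interferon-γ is the classical inducer of Ciita, and 9 of 10 genes from the cytokine to the Ciita promoter could be tested. Their fitted values were higher in AX for 7 and lower for 2 (median log2 fold change 0.05, 0 passing). Ifng itself had 91 reads over all libraries, from 0.0639 to 3.55 CPM, and did not pass the filter. The receptor gene Ifngr1 stood at 121 ± 24.7 against 112 ± 24.9 CPM (SD, n = 5 each), and Irf2 at 79.004 ± 37.7 against 70.1 ± 18.8 CPM. Irf1, an interferon-induced factor of the Ciita promoter, ranged from 12.3 to 189.7 CPM over the libraries, at 36.3 ± 41.2 against 76.2 ± 76.6 CPM.

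The list of endosomal antigen processing holds proteases, the reductase gene Ifi30 and the protease inhibitor gene Cst3. Fitted values lay below NC for 8 of its 11 genes, Cst3 among them, and above it for 3 (median log2 fold change -0.15), and 0 passed. Ctsh, the aminopeptidase cathepsin H, had the smallest p of the pathway lists, at 59.4 ± 11.4 against 88.2 ± 29.2 CPM. Its log2 fold change was -0.57 ± 0.24 (SE) and an unadjusted p of 0.0381 in edgeR (adjusted p = 0.9999). Ifi30, which encodes the lysosomal thiol reductase GILT, stood at 128 ± 34.4 against 166 ± 45.7 CPM, Ctsz at 822 ± 89.5 against 970.4 ± 122 CPM, and Ctsl, cathepsin L, at 441 ± 55.9 against 362 ± 73.1 CPM. Their unadjusted p in edgeR was 0.165, 0.168 and 0.15.

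Surface class II is removed by the ubiquitin ligase MARCH1, which IL-10 is known to induce in monocytes. March1 mRNA stood at 34.1 ± 13.8 against 46.04 ± 15.6 CPM, a log2 fold change of -0.43 ± 0.32 (SE), and its relative March8 at 30.6 ± 6.17 against 26.4 ± 6.65 CPM (SD, n = 5 each). Of the 7 tested genes of surface turnover, 5 were higher and 2 lower by fitted value (median 0.11, 0 passing), with the tetraspanin genes Cd9 at 918 ± 144 against 846 ± 214 CPM and Cd81 at 41.6 ± 25.3 against 30.999 ± 13.98 CPM. Of 7 genes for costimulation and adhesion at the T cell contact, 2 were higher and 5 lower (median -0.05, 0 passing). Pdcd1lg2, which encodes the inhibitory ligand PD-L2, stood at 8.54 ± 1.72 against 11.4 ± 2.27 CPM, Cd80 at 72.5 ± 23.8 against 75.5 ± 25.3 CPM, Cd40 at 4.56 ± 3.28 against 5.73 ± 1.05 CPM, and Icam1 at 228 ± 253 against 171 ± 114 CPM. Neighbours in the class II region of chromosome 17 did not pass either: Brd2 stood at 202 ± 42.1 against 181 ± 26.5 CPM, H2-Ke6 at 9.64 ± 1.97 against 9.85 ± 2.02 CPM, and H2-Eb2, a second E β gene, at 1.40 ± 0.678 against 1.597 ± 1.19 CPM.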

How the data were processed

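Polyadenylated RNA was sequenced from peritoneal lavage cells of 10 samples (5 AX, 5 NC). Per the submitters' processing notes the authors used HISAT2 2.0.4 and mm10. The sources used here name no counter, annotation release or strand setting. The deposited table holds raw counts and FPKM; the FPKM deposited by the authors equal count over gene length and column total (largest relative gap 1.69e-05 over 7639 genes). The 27 gene names that a spreadsheet had turned into dates were restored by gene ID. Coordinates are those of the file; gene spans and overlaps were checked in GENCODE M21, and promoters are from RefSeq (GRCm38.p6). No 2 libraries agreed within sampling noise (smallest chi-square over its degrees of freedom 38.6), so all 10 were kept.

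Counts were analysed with edgeR 4.0.16 (R 4.3.3; filterByExpr, TMM, two-sided quasi-likelihood test without covariates, Benjamini-Hochberg over all genes), with DESeq2 1.42.0 and limma 3.58.1 as alternatives. Total counts of 10221170 to 13806885 gave a median standard error of 0.317 log2 units. Correlations used log2 CPM with 0.5 counts added, 100000 permutations for 10 libraries and exact enumeration for fewer (Python 3.11.15); the level of a list is its tested genes' mean log2 CPM. The fits were tested on simulated data. The named genes are the 10 members, up to 4 genes of smallest p in each pathway list, the 2 most abundant of each cell list, and the 8 genes most correlated with H2-Ab1; Dexi, Gm20513, BC051537, Xcr1, Clec9a, Siglech, Ifng and H2-Ea-ps were chosen after values were seen. A gene that this rule names is not reported here. The members and lists were chosen with earlier results of these data known. Pairs of members and the members against every cell list were alternatives chosen after seeing the data.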

Additional observations from a re-analysis of the deposited data

How the results depend on the processing

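No class II gene passed an adjusted p of 0.05 under any setting run; the stricter count filter and the FPKM analysis left 7 of the 10 to test and gave no value for Ciita, H2-Oa and H2-Ob. The number of genes called over the whole table was 0 to 1 when single libraries were left out, the 1 being Rnf24 without NC 3 (edgeR log2 fold change -5.75, adjusted p = 0.0174), and 0 in the other settings. No paired analysis was possible because AX and NC share no replicate number.

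Fitted log2 fold changes near 0 turned sign. Ciita was at 0.14 in limma-voom and 0.0894 with the B cell list as covariate. H2-Aa was at -0.0241 with library totals, -0.0081 in limma-voom with quality weights, -0.0265 in limma on log2(FPKM + 1) and -0.0608 without AX 6 and NC 1. H2-DMb1 was at 0.0555 with quality weights, and H2-DMb2 at -0.0135 with library totals and -0.0807 with quality weights. With 1 library left out at a time the log2 fold change ran from -0.65 to 0.14 for Ciita, -0.0689 to 0.19 for H2-Aa, -0.15 to 0.0702 for H2-Eb1, -0.33 to 0.0564 for H2-DMb1 and -0.16 to 0.29 for H2-DMb2; H2-Ab1 (0.0054 to 0.22), H2-Oa (0.59 to 1.21), H2-Ob (0.19 to 0.62), H2-DMa (-0.45 to -0.06) and Cd74 (-0.43 to -0.08) kept their sign.

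Without the 2 farthest libraries r of Ciita was -0.448 with H2-Aa, -0.185 with H2-Ab1, -0.427 with H2-Eb1 and -0.357 with H2-Oa, and r of H2-Ab1 was -0.377 with conventional dendritic cell markers, -0.551 with large macrophage, -0.308 with monocyte, 0.172 with mesothelial and 0.291 with gut markers (0.0479 for gut with library totals). Library totals gave Ciita r = 0.758 with H2-DMb2 and 0.829 with H2-Ob, both past the threshold. Leaving out 1 library, r of Ciita ran from -0.349 to 0.595 with H2-Aa, -0.219 to 0.447 with H2-Ab1, -0.233 to 0.618 with H2-Eb1, 0.41 to 0.838 with H2-DMb2, -0.468 to 0.345 with H2-Oa and 0.353 to 0.9005 with H2-Ob. That of H2-Ab1 ran from -0.278 to 0.494 with conventional dendritic cell, -0.229 to 0.188 with large macrophage, -0.193 to 0.138 with monocyte, -0.0852 to 0.650 with neutrophil, -0.301 to 0.0983 with mesothelial and -0.343 to 0.242 with gut markers. The cause of these changes was not tested. Depth limits Ciita and H2-Oa most, with 0 to 27 and 2 to 23 counts per library.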
